A study of Mus musculus with 20 samples.

Results

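The genes described here are 8 genes by which lymphoid tissue is organised: Cxcl13, Cxcr5, Ccl19, Ccl21a, Lta, Ltb, Ltbr and Tnfsf13b. They were chosen by name for their known roles, as the entries of the deposited count table whose gene symbol equals 1 of these 8 names, and they are 8 of the 46983 genes in that table. RNA-seq had been run on 20 mouse libraries from pancreatic tumours, which grew from KPC cells (a mouse pancreatic cancer line) implanted orthotopically in the pancreas of C57BL/6 hosts and were taken at 2 weeks. No treatment was given. There were 5 libraries of each of 4 groups: CD45+ leukocytes from tumours in IL33-/- hosts (sorted IL33KO), CD45+ leukocytes from tumours in wild-type hosts (sorted WT), whole tumour from IL33-/- hosts (bulk IL33KO) and whole tumour from wild-type hosts (bulk WT). KPC cells were implanted in both host genotypes, and the genotype labelled is that of the host. The labels name 5 hosts per genotype, do not tie a library to a mouse, and do not say whether sorted and bulk libraries share tumours. The p-values thus cover the spread from library to library, part of which may be technical. The design addresses which genes of the tumour and of its leukocytes differ with the absence of host IL-33, an alarmin cytokine.

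CXCL13 is the chemokine that draws cells bearing its receptor CXCR5, mainly B cells and follicular helper T cells, into follicles. CCL19 and CCL21 attract cells bearing CCR7, among them naive T cells and mature dendritic cells, and CCL21 is also made by lymphatic endothelium. Lymphotoxin-alpha (Lta) and lymphotoxin-beta (Ltb) form a membrane trimer on lymphocytes that engages the lymphotoxin-beta receptor (Ltbr) on stromal, epithelial and myeloid cells, where non-canonical NF-kB signalling induces the chemokines. BAFF (Tnfsf13b) is the survival factor of B cells.

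Depth was 51.3 to 81.0 M gene counts per library, with a median of 59.5 M (M, mega), so 3 counts, the most that a count of 0 allows, stood for 0.0371 to 0.0585 CPM (counts scaled to library size). Summed CPM of 6 pan-leukocyte genes was 6446 to 7760 in sorted IL33KO and 6504 to 8547 in sorted WT libraries, against 589.5 to 1125 in bulk IL33KO and 498.6 to 1124 in bulk WT libraries. Keratins and other genes of tumour epithelium (5 genes) were still counted in the sorted libraries, at 1536 to 2325 CPM in IL33KO and 888.7 to 2214 CPM in WT, against 5068 to 7472 CPM in bulk IL33KO and 6087 to 7828 CPM in bulk WT libraries. So were 7 fibroblast genes, at 164.4 to 915 CPM in sorted IL33KO and 315 to 688.5 CPM in sorted WT. In whole tumour these had 1229 to 4586 CPM in bulk IL33KO and 902 to 2131 CPM in bulk WT. The part of such cells in the sorted values was not tested. Il33 itself was counted at 14.3 to 25.7 CPM in sorted IL33KO and 5.76 to 20.6 CPM in sorted WT, and at 37.0 to 56.3 CPM in bulk IL33KO and 53.6 to 66.7 CPM in bulk WT libraries. Which exons were removed is not stated in the labels, and the labelled genotype is that of the host and not of the implanted KPC cells. These counts therefore do not check the genotype. Some libraries stood apart: 6 pancreatic acinar genes summed to 39627 CPM in sorted IL33KO 3 (605.7 to 6663 CPM in the other sorted libraries), and to 8655 CPM in bulk WT 5 and 1622 CPM in bulk IL33KO 3 (24.3 to 156.8 CPM in the other bulk libraries).

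A search for an NF-kB motif near the gene starts, and the sequences that bear on how far these counts can be read, are given first. Cxcl13 lies at chr5:95956951-95961068 (mm10, plus strand). The kappaB consensus, the motif that NF-kB proteins are known to bind, was searched on both strands of RefSeq promoters (GRCm38.p6, 250 bases before to 50 after each start). It was found in 2779 of 32851 promoters, 8.46%. Of the 8 members, 7 had a promoter in that table (Cxcr5 had none). A match was held by 1 of these, that of the ligand subunit Ltb, on the minus strand at bases -87 to -78 from its RefSeq start. The promoters of Cxcl13, Ccl19, Ccl21a, Lta, Ltbr and Tnfsf13b held no match. The stretch before Ltb, chr17:35194257-35194438 on the plus strand, is shown with the match in capitals. It ends before the first GENCODE transcript of the gene, which starts upstream of that RefSeq start.
Ltb upstream: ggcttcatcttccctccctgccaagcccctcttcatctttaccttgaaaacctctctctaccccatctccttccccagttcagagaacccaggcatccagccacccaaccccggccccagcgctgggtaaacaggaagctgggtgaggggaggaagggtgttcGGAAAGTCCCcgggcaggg
A match is a stretch of letters and not a shown binding site, and no match says only that these letters are not in that window.

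Ccl21a (chr4:42772860-42773993, minus strand) belongs to a cluster of near-identical copies, and its coding sequence differs from that of Ccl21b at 2 of 402 bases (99.5% identity), T84A and C194T, where positions count from the A of the start codon and the Ccl21a base is given first. Bases 54 to 113 of both coding sequences show how few bases tell the copies apart (GRCm38, coding strand, the differing base in capitals).
Ccl21a coding bases: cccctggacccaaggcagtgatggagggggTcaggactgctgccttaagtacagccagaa
Ccl21b coding bases: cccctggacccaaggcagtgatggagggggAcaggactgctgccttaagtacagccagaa
Reads that aligned to several places were tallied apart from the gene counts in the deposited table, and Ccl21b and its predicted copies Gm13304, Gm21541 and Gm10591 had 0 counts in all 20 libraries. Ccl21a counts are therefore uncertain as a measure of all CCL21 transcripts. Counts of Cxcr5, Ccl19, Ccl21a and Tnfsf13b could also be uncertain where another annotated gene overlaps them on the opposite strand (Bcl9l at Cxcr5, 4930578G10Rik at both Ccl19 and Ccl21a, Gm44789 at Tnfsf13b), since the strand setting of the counting is not given in the sources used here. A microRNA gene lies inside Lta (Mir6974) and inside Ltb (Mir6973a) on the same strand, where reads could be ambiguous whatever that setting. These overlaps are of whole gene spans, and whether exons are shared was not checked.

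Levels per length were compared as CPM per kb of exon. In sorted IL33KO leukocytes the order was Ltb at 65.5 ± 18.5 and Ltbr at 51.9 ± 4.4 CPM per kb, then Cxcr5 (10.9), Cxcl13 (7.37), Ccl21a (6.29), Lta (3.87) and Tnfsf13b (1.25 ± 0.18; SD, n = 5). In sorted WT leukocytes Ltb (72.6 ± 9.9) and Ltbr (56.8 ± 4.9) again led, followed by Cxcl13 (13.2), Cxcr5 (8.21), Lta (4.38), Ccl21a (3.29) and Tnfsf13b (1.29 CPM per kb). The ranges of Ltb and Ltbr overlapped in both sorted groups and lay above the ranges of all other members. Cxcr5, Cxcl13, Ccl21a and Lta overlapped their neighbours in the order, and Tnfsf13b did not overlap the gene just above it. In whole tumour Ltbr stood alone at the top, at 74.9 ± 15.2 CPM per kb in bulk IL33KO and 84.3 ± 17.2 in bulk WT, and its range did not overlap that of Ltb, the next gene, which had 8.60 ± 3.45 in bulk IL33KO and 7.36 ± 5.34 in bulk WT. Cxcr5 was near the foot of the order in whole tumour, with 0.730 ± 0.956 CPM per kb in bulk IL33KO and 0.260 ± 0.312 in bulk WT libraries. The lymphotoxin receptor thus had the highest level per length of these genes in the tumour, and the ligand subunit Ltb had a like level in the leukocyte fraction.

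**Figure D1:**
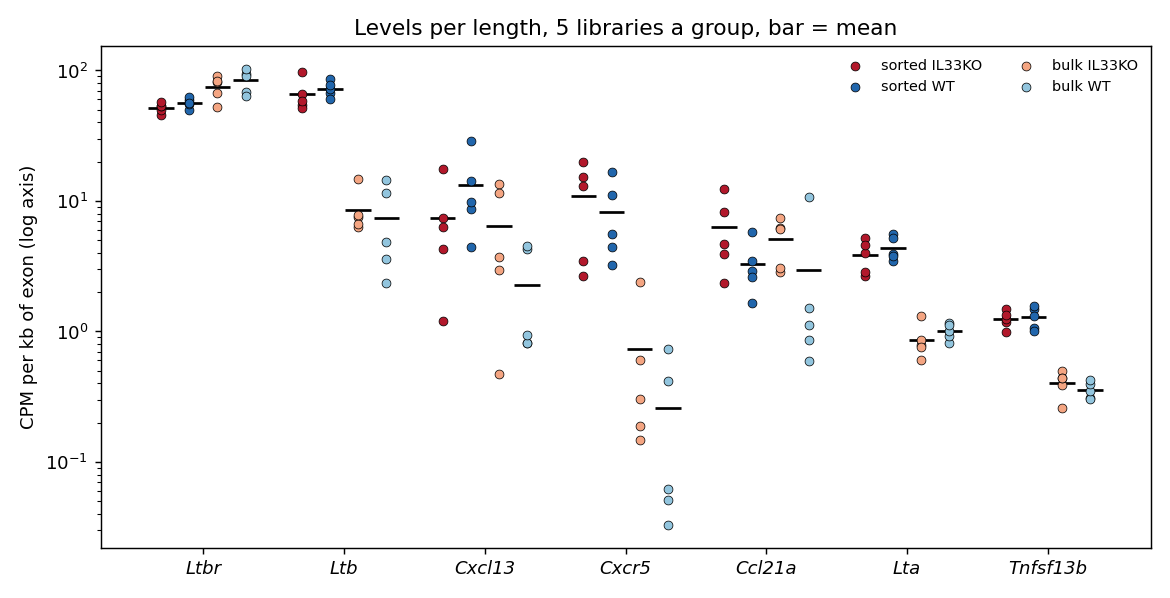
Level of 7 of the 8 genes in CPM per kb of exon (vertical log axis), 1 point per library and a bar at the mean of the 5 libraries of each group; Ccl19 is left out because 10 of its 20 libraries are at 0. Ltbr and Ltb lie above the others in the sorted groups, while in bulk tumour Ltbr stands alone at the top.

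Cxcl13 had 8.52, 20.2, 1.40, 7.31 and 4.97 CPM in sorted IL33KO libraries 1 to 5, against 16.3, 10.02, 33.0, 5.13 and 11.2 CPM in sorted WT libraries 1 to 5. Whole tumour held 4.30, 15.4, 0.547, 3.39 and 13.2 CPM in bulk IL33KO libraries, against 0.946, 0.945, 4.89, 1.07 and 5.22 CPM in bulk WT libraries. The host genotypes overlapped in both materials, with 4 of 5 IL33KO libraries below the WT median in sorted leukocytes and 4 of 5 above it in whole tumour. Neither genotype difference passed the test: log2 -0.82 (SE 0.65; edgeR quasi-likelihood, Benjamini-Hochberg adjusted p = 0.638) in sorted leukocytes, and 1.48 (SE 0.81; adjusted p = 0.724) in whole tumour. The difference between these genotype effects was -2.33 on the log2 scale (SE 1.12), with an unadjusted p = 0.0516 and an adjusted p = 0.448. Sorted leukocytes held more Cxcl13 than whole tumour in WT hosts (log2 2.53, SE 0.82, edgeR adjusted p = 0.0112), whereas in IL33KO hosts the same comparison gave 0.20 (SE 0.78, adjusted p = 0.834). In RNA of mixed cells, fewer cells of a type and less RNA per cell cannot be told apart. This limit holds for every value of whole tumour here, and for those of the sorted leukocytes, which are also mixed. The spread within a group was wide, with the highest bulk IL33KO library 28.2 times the lowest. With single libraries left out, the genotype difference in sorted leukocytes ran from -1.43 (without sorted IL33KO 2) to -0.33 (without sorted WT 3), and it was -0.55 without sorted IL33KO 3; none of these passed the threshold.

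Cxcr5, the receptor (chr9:44511787-44561877, minus strand), had 51.0, 66.8, 43.1, 11.6 and 8.92 CPM in sorted IL33KO libraries, against 36.8, 18.7, 55.6, 10.8 and 14.9 CPM in sorted WT libraries. Whole tumour held 0.490, 1.02, 0.625, 2.00 and 8.03 CPM in bulk IL33KO and 0.207, 0.169, 2.46, 0.110 and 1.38 CPM in bulk WT libraries. Sorted libraries were all above bulk libraries of the same host genotype, and the genotypes overlapped in both materials. Cxcr5 was higher in sorted leukocytes than in whole tumour by log2 3.90 (SE 0.97, edgeR adjusted p = 0.00201) in IL33KO hosts and by 4.97 (SE 1.03, adjusted p = 0.000355) in WT hosts. Without bulk IL33KO 5 the first became 5.12, and without bulk WT 3 the second became 5.86, both still past the threshold. The genotype difference was 0.42 (SE 0.64, adjusted p = 0.829) in sorted leukocytes and 1.48 (SE 1.00, adjusted p = 0.724) in whole tumour. The value in whole tumour moved widely with single libraries: without bulk IL33KO 5 it was 0.25 (adjusted p = 0.978), and without bulk WT 3 it was 2.36 (adjusted p = 0.678).

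Cxcr5 followed the B cell genes from library to library. Summed CPM of 7 B cell genes (Ms4a1, Cd79a, Cd79b and others) ran from 181.0 to 1046 in sorted IL33KO and from 245.4 to 703 in sorted WT libraries, and all 7 genes had counts in every library. Ranked over the 10 sorted libraries, the same 4 were highest for Cxcr5 and for this list: sorted IL33KO 1, 2 and 3, and sorted WT 3. In whole tumour the list had 24.8 to 171.8 CPM in bulk IL33KO and 14.2 to 65.4 CPM in bulk WT libraries, and the highest 4 of 10 libraries were again shared (bulk IL33KO 4 and 5, bulk WT 3 and 5), as were the lowest 3 (bulk WT 1, 2 and 4). The pan-leukocyte and macrophage lists had the same highest 4 and lowest 3 bulk libraries, so this split in whole tumour is not particular to B cell genes. The part of B cell number in the Cxcr5 values was not tested. Over all 20 libraries the genes whose centred log2 CPM lay closest to that of Cxcr5 were Ms4a1 (root mean square difference 0.35), Fcer2a (0.42) and Fcmr (0.42), against a spread of Cxcr5 about its own mean of 2.85. Ms4a1 encodes CD20, Fcer2a the low-affinity IgE receptor CD23, and Fcmr the IgM Fc receptor.

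**Figure D2:**
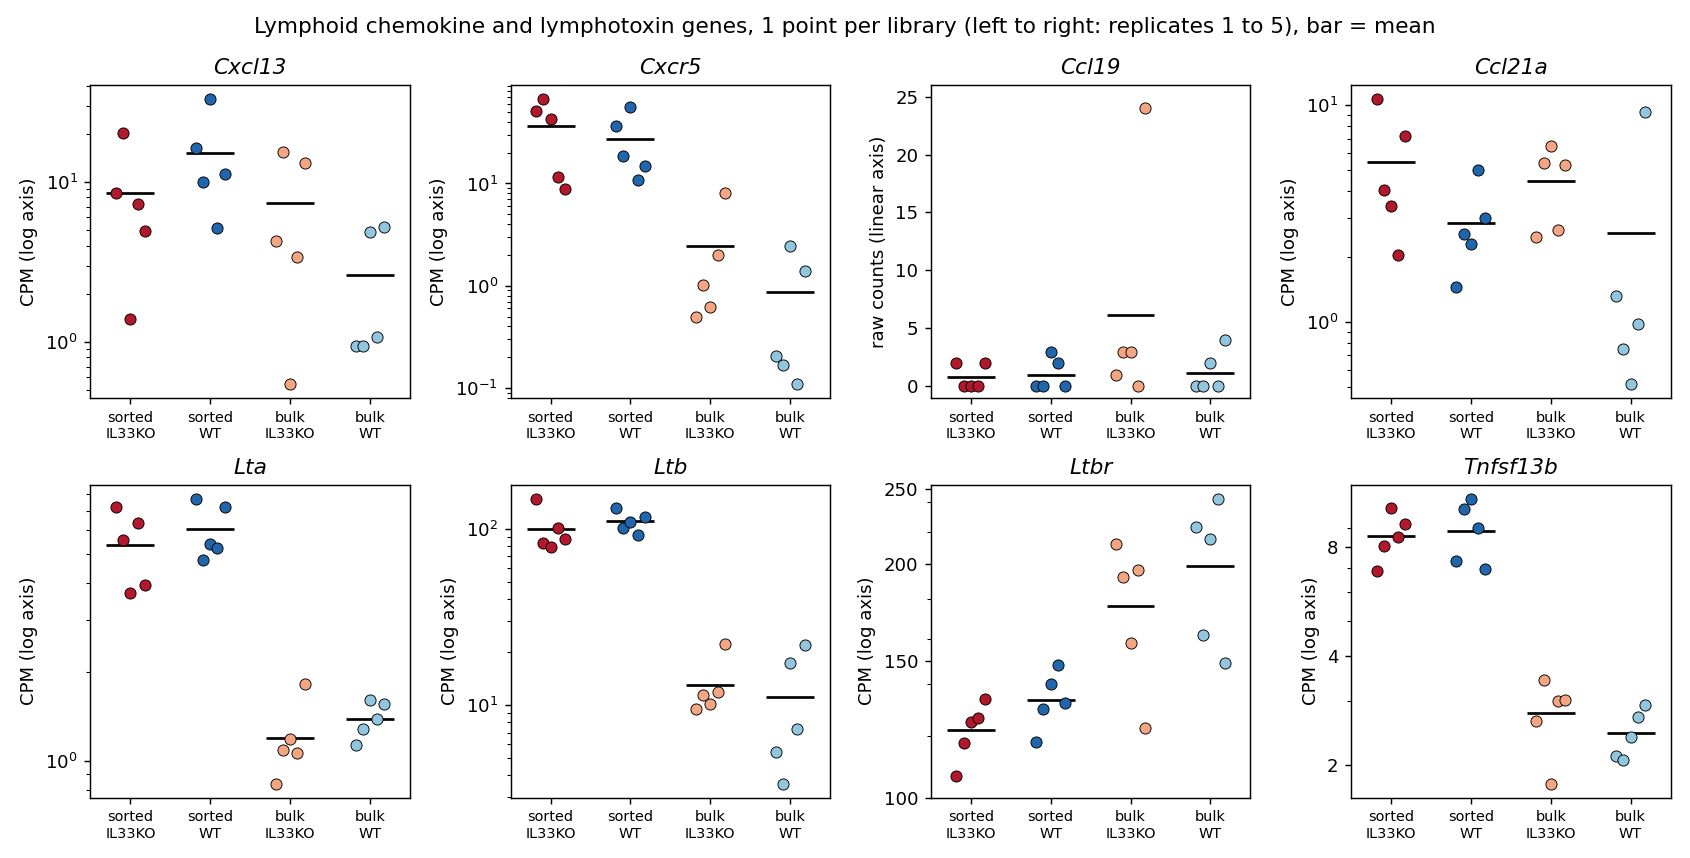
Values of the 8 genes in each library, in CPM on log axes (Ccl19 in raw counts on a linear axis); in each group the points are replicates 1 to 5 from left to right and the bar is the mean. Lta, Ltb, Tnfsf13b and Cxcr5 are higher in every sorted library than in any bulk library of the same genotype, while the IL33KO and WT points overlap in all 8 panels.

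Ccl19 (chr4:42754525-42756577, minus strand) had few counts in these libraries. Its raw counts were 2, 0, 0, 0 and 2 in sorted IL33KO, 0, 0, 3, 2 and 0 in sorted WT, 1, 3, 3, 0 and 24 in bulk IL33KO and 0, 0, 2, 0 and 4 in bulk WT libraries. Of 20 libraries, 18 had 3 counts or fewer, and above that were bulk WT 5 with 4 counts and bulk IL33KO 5 with 24 counts (0.330 CPM). The annotation holds another Ccl19 gene on a scaffold apart from the chromosomes, which has no row in the count table, and 2 pseudogenes with 1 count between them over all libraries. Since reads that aligned to several places were tallied apart, the low counts do not show that Ccl19 transcripts were absent. Ccl19 was the only member below the filter on low counts and entered no test.

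Ccl21a, the CCL21 gene with counts, had 10.7, 4.04, 3.41, 2.03 and 7.20 CPM in sorted IL33KO libraries, against 1.44, 2.53, 2.29, 5.04 and 3.00 CPM in sorted WT libraries. The values in whole tumour were 2.47, 5.39, 6.48, 2.65 and 5.31 CPM in bulk IL33KO libraries, against 1.31, 0.748, 0.516, 0.976 and 9.36 CPM in bulk WT libraries. All 5 bulk IL33KO libraries were above 4 of the 5 bulk WT libraries, and bulk WT 5 was above them all. The genotype difference in whole tumour was log2 0.79 (SE 0.75, edgeR adjusted p = 0.753), and without bulk WT 5, the library high in acinar genes, it was 2.33 (adjusted p = 0.0599). In sorted leukocytes it was 0.95 (SE 0.45, unadjusted p = 0.0599, adjusted p = 0.414), with 4 of 5 IL33KO libraries above the WT median. Fibroblast genes were also counted in the sorted libraries, and the part of non-leukocyte cells in the sorted Ccl21a values was not tested. Ccl21a did not differ between sorted leukocytes and whole tumour beyond the spread in IL33KO hosts (log2 0.30, SE 0.65, adjusted p = 0.708) or WT hosts (0.15, SE 0.66, adjusted p = 0.855). The WT value also rested on bulk WT 5: without it Ccl21a was higher in sorted WT than in bulk WT libraries by 1.69 (adjusted p = 0.00395). With all libraries kept, voom with quality weights also called it higher there, by 1.28 (adjusted p = 0.0142), as it did 40.8% of all genes.

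The genes closest to Ccl21a over the 20 libraries were Mmrn1 (root mean square difference in log2 CPM 0.48), Ptx3 (0.67) and Prox1 (0.68), against a spread of Ccl21a about its mean of 1.15. Prox1, the transcription factor of lymphatic endothelial identity, averaged 1.96 ± 0.73 CPM in sorted IL33KO and 0.675 ± 0.193 CPM in sorted WT libraries (SD, n = 5 each), log2 1.55 with an unadjusted p = 0.00117 and an edgeR adjusted p = 0.164. The other genes of the lymphatic list gave 0.19 (Flt4), -0.14 (Lyve1) and -0.17 (Reln) in sorted leukocytes, none past the threshold. In whole tumour Prox1 averaged 0.828 ± 0.328 CPM in bulk IL33KO and 0.685 ± 0.909 CPM in bulk WT libraries (adjusted p = 0.892), and bulk WT 5 held the highest Prox1 value of its group, as it did for Ccl21a. All 4 lymphatic endothelial genes listed (Prox1, Lyve1, Flt4, Reln) had counts in every library, with a summed level of 16.4 to 45.5 CPM in sorted IL33KO and 18.1 to 65.0 CPM in sorted WT, and of 18.0 to 34.5 CPM in bulk IL33KO and 9.69 to 29.8 CPM in bulk WT libraries. On average Lyve1 was the largest part of this sum in sorted IL33KO (20.7 CPM) and sorted WT (22.75 CPM). In bulk IL33KO (15.1 CPM) and bulk WT (10.6 CPM) the largest part was Flt4. The part of lymphatic endothelium in the Ccl21a values was not tested.

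**Figure D3:**
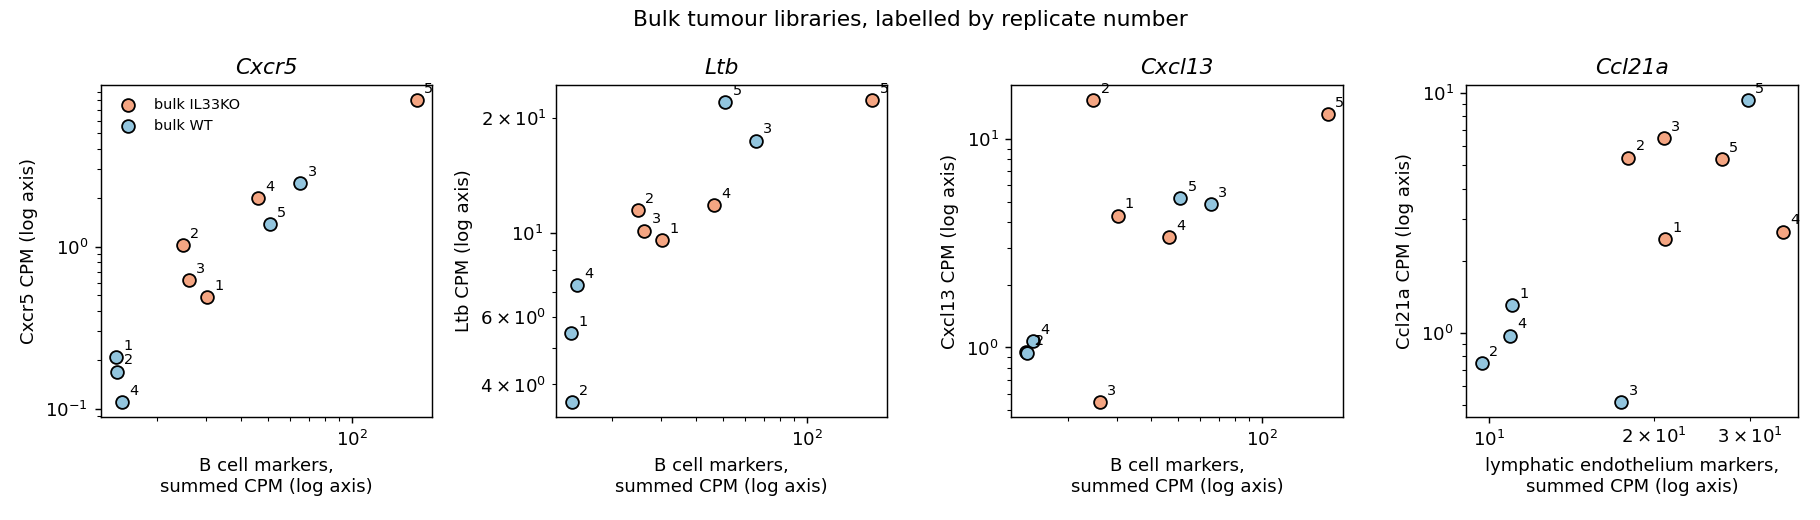
Level of Cxcr5, Ltb, Cxcl13 and Ccl21a in each bulk tumour library (vertical log axis, CPM) against the summed CPM of B cell or lymphatic endothelium genes in the same library (horizontal log axis); numbers are replicate numbers. Bulk IL33KO 5 is highest for B cell genes and Cxcr5, bulk WT 1, 2 and 4 are lowest for both, and bulk WT 5 is highest for Ccl21a.

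The lymphotoxin genes lie near each other on chromosome 17, Ltb at chr17:35194439-35196320 (plus strand) and Lta at chr17:35203165-35205351 (minus strand). Ltb, the subunit that anchors the trimer in the membrane, had 147, 82.8, 78.2, 100.5 and 87.8 CPM in sorted IL33KO libraries, against 131, 101, 110, 91.8 and 117 CPM in sorted WT libraries. Its values in whole tumour were 9.54, 11.4, 10.1, 11.8 and 22.2 CPM in bulk IL33KO libraries, against 5.44, 3.60, 17.4, 7.30 and 22.0 CPM in bulk WT libraries. The sorted libraries of both host genotypes were thus far above the bulk libraries, and the genotypes overlapped. Ltb was higher in sorted leukocytes than in whole tumour by log2 2.93 (SE 0.40, edgeR adjusted p = 4.16e-06) in IL33KO hosts and by 3.30 (SE 0.41, adjusted p = 8.65e-07) in WT hosts. Its genotype difference was -0.14 (SE 0.17, adjusted p = 0.778) in sorted leukocytes and 0.22 (SE 0.47, adjusted p = 0.876) in whole tumour. The bulk tumours ranked alike for Ltb and Cxcr5, with the same highest 4 and the same lowest 3 of 10 libraries, and this split was shared by the pan-leukocyte and macrophage lists as well as by the B cell list. The macrophage list (7 genes) summed to 1149 to 1460 CPM in bulk IL33KO and to 562.2 to 1833 CPM in bulk WT libraries; the part of leukocyte content in the Ltb values was not tested.

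Lta, the subunit shared with the secreted trimer, ran from 3.68 to 7.23 CPM (median 5.55) in sorted IL33KO and from 4.78 to 7.67 CPM (median 5.38) in sorted WT libraries. In whole tumour it ran from 0.838 to 1.81 CPM in bulk IL33KO and from 1.13 to 1.60 CPM in bulk WT libraries. As with Ltb, no sorted library overlapped a bulk library. The difference between sorted leukocytes and whole tumour was log2 2.16 (SE 0.23, edgeR adjusted p = 2.22e-07) in IL33KO hosts and 2.12 (SE 0.23, adjusted p = 1.79e-07) in WT hosts. The genotype difference was -0.17 (SE 0.22, adjusted p = 0.788) in sorted leukocytes and -0.22 (SE 0.24, adjusted p = 0.772) in whole tumour. The genes closest to Lta over the 20 libraries were Btg1 (0.27), Mthfs (0.28) and Psd4 (0.29), and those closest to Ltb were Hcst (0.23), Il21r (0.23) and Coro1a (0.25), where the values are again root mean square differences in log2 CPM. Hcst encodes the signalling adaptor DAP10, Il21r the receptor of interleukin-21, and Coro1a a leukocyte actin regulator that is also in the pan-leukocyte list.

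Ltbr, the receptor (chr6:125306571-125313885, minus strand), ran the other way. It had 107, 118, 125, 127 and 134 CPM in sorted IL33KO libraries and 118, 130, 140, 148 and 133 CPM in sorted WT libraries. Whole tumour held 212, 192, 158, 196 and 123 CPM in bulk IL33KO libraries, against 223, 162, 215, 243 and 149 CPM in bulk WT libraries. Every bulk WT library was above every sorted WT library, whereas in IL33KO hosts bulk library 5 fell within the sorted range. Ltbr was lower in sorted leukocytes than in whole tumour by log2 -0.53 (SE 0.14, edgeR adjusted p = 0.00354) in IL33KO hosts and by -0.57 (SE 0.14, adjusted p = 0.00179) in WT hosts. In both sorted groups Ltbr had the smallest spread of the tested members, 1.26-fold between the lowest and highest library. In bulk WT libraries Tnfsf13b (1.41-fold) and Lta (1.42-fold) spread less than Ltbr (1.63-fold). The genotype difference was -0.12 (SE 0.08, adjusted p = 0.587) in sorted leukocytes and -0.18 (SE 0.17, adjusted p = 0.751) in whole tumour, where all 5 IL33KO libraries were below the WT median. The genes closest to Ltbr over the 20 libraries were Rbm47 (0.11), Plin3 (0.12) and Gorasp1 (0.12), against a spread of Ltbr about its mean of 0.35.

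Tnfsf13b, which encodes BAFF (chr8:10006467-10039072, plus strand), ran from 6.86 to 10.2 CPM (median 8.52) in sorted IL33KO and from 6.94 to 10.8 CPM (median 9.01) in sorted WT libraries. In whole tumour it ran from 1.78 to 3.44 CPM in bulk IL33KO and from 2.07 to 2.93 CPM in bulk WT libraries. The sorted and bulk ranges did not overlap in either host genotype. Tnfsf13b was higher in sorted leukocytes by log2 1.62 (SE 0.18, edgeR adjusted p = 3.50e-07) in IL33KO hosts and by 1.85 (SE 0.18, adjusted p = 4.62e-08) in WT hosts. The genotype difference was -0.03 (SE 0.15, adjusted p = 0.957) in sorted leukocytes and 0.17 (SE 0.20, adjusted p = 0.782) in whole tumour. Daglb (0.20) and Coro7 (0.20) lay closest to it over the 20 libraries.

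Read as a set, none of the 7 tested members passed the test between host genotypes. In sorted leukocytes edgeR called 0 of 7 members, against 0.0120% of 16731 genes (2 genes), and 0 members had an unadjusted p under 0.05, against 12.9% of all genes. DESeq2 called 0 members there, against 3.38% of genes, and limma voom with quality weights per sample also called 0, against 2.39%. In whole tumour edgeR called 0 of 7 members and 0.00% of 17258 genes, with 0 members at an unadjusted p under 0.05 against 6.36% of all genes, and DESeq2 called 0 members, against 0.290% of genes. Limma voom with sample quality weights, which gives less weight to libraries that deviate from their group, called 4 members higher in bulk IL33KO than in bulk WT: Cxcr5 by log2 2.64 (adjusted p = 0.0209), Cxcl13 by 2.13 (adjusted p = 0.0476), Ccl21a by 1.65 (adjusted p = 0.0150) and Ltb by 0.87 (adjusted p = 0.0418). That setting called 3371 genes in all in whole tumour, and 11.1% of genes higher in bulk IL33KO. No member's ranges were apart between genotypes, against 3.69% of genes in sorted leukocytes and 0.661% in whole tumour. For Cxcr5, Ccl21a and Ltb, 5 of 5 bulk IL33KO libraries were above the bulk WT median, and for Ltbr 5 of 5 were below it. The share of all genes with 5 of 5 on the same side was not computed, so nothing is read from these counts. The median log2 difference over the 7 members was -0.12 in sorted leukocytes, against 0.02 over all genes, and 0.22 in whole tumour, against 0.01 over all genes.

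Between compartments, sorted leukocytes of IL33KO hosts had 4 of 7 members higher and 1 lower than whole tumour, against 31.3% of all genes higher and 31.7% lower. In WT hosts 5 of 7 were higher and 1 lower, against 33.7% of all genes higher and 34.3% lower. The ranges of 4 members lay wholly above those of whole tumour in each host genotype (24.6% of genes in IL33KO hosts and 26.2% in WT hosts), and that of 1 member, Ltbr, wholly below in WT hosts (24.3% of genes, and 24.2% in IL33KO hosts, where no member did so). The median log2 difference over the members was 1.62 in IL33KO hosts, against 0.02 over all genes, and 2.12 in WT hosts, against -0.0030 over all genes. Between compartments 63.0% of all genes were called in IL33KO hosts and 68.0% in WT hosts, so nothing particular to the 8 genes is read from these counts. The genotype effect did not differ between compartments past the threshold for any member by edgeR (0 of 7 at an adjusted p under 0.05 and 0 at an unadjusted p under 0.05, against 0.00% and 11.2% of 18145 genes); DESeq2 also called 0 members, against 0.0220% of genes. Voom with quality weights called 1 member, Ltb (log2 -1.02, adjusted p = 0.0327), and it called 10.3% of all genes in that direction.

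**Figure D4:**
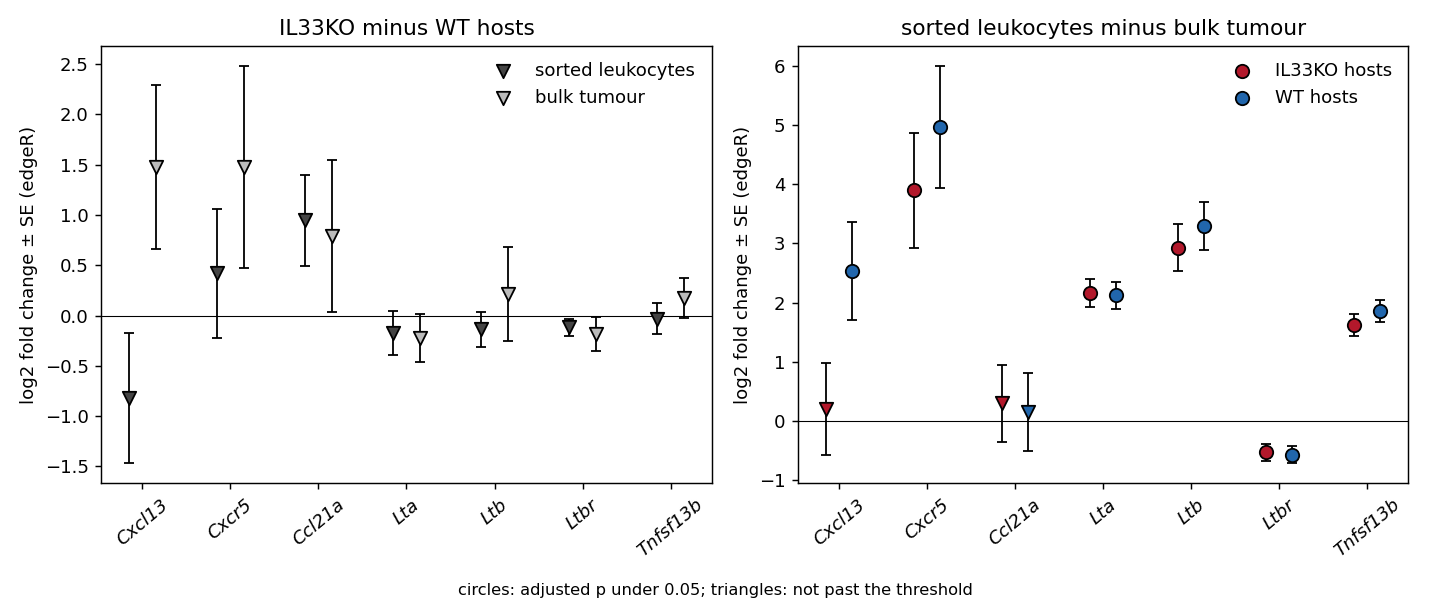
Log2 fold change with its standard error (edgeR) for the 7 tested genes, between host genotypes in the left panel and between sorted leukocytes and bulk tumour in the right panel; circles passed an adjusted p of 0.05 and triangles did not. All genotype differences are triangles, while Cxcr5, Lta, Ltb and Tnfsf13b lie above 0 and Ltbr below 0 as circles in both host genotypes of the right panel.

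Other genes of the pathway were followed in 5 lists, whose counts stand against the shares of all genes given above (31.3% higher and 31.7% lower in IL33KO hosts, 33.7% and 34.3% in WT hosts). Of the other ligands and receptors of the TNF family, 12 of 13 tested were higher in sorted leukocytes than in whole tumour, and none lower, in each host genotype. Tnfsf14 encodes LIGHT, another ligand of Ltbr, and it was higher by log2 3.50 (edgeR adjusted p = 3.43e-09) in IL33KO hosts and 3.81 (adjusted p = 8.56e-10) in WT hosts. It averaged 22.9 ± 5.6 CPM in sorted IL33KO and 28.6 ± 4.3 CPM in sorted WT, against 2.02 ± 0.59 CPM in bulk IL33KO and 2.04 ± 0.90 CPM in bulk WT libraries (SD, n = 5 each). Tnfrsf13b, the BAFF and APRIL receptor TACI, was higher in sorted than in bulk WT libraries by 3.65 (adjusted p = 1.84e-09), and Tnfrsf1b, a TNF receptor, in sorted than in bulk IL33KO libraries by 1.65 (adjusted p = 1.29e-08). Of 8 non-canonical NF-kB genes, 6 were higher in sorted leukocytes in IL33KO hosts and 5 in WT hosts. They included Birc3, a ubiquitin ligase of the pathway (1.62 in IL33KO and 1.64 in WT hosts), Map3k14, which encodes the kinase NIK (0.88 in IL33KO hosts, adjusted p = 0.000538), and Relb, a transcription factor (0.83 in WT hosts, adjusted p = 7.79e-06).

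Of 10 tested genes of the homeostatic chemokine system other than the members, 5 were higher and 2 lower in sorted leukocytes in IL33KO hosts, and 6 higher and 2 lower in WT hosts. Cxcr4, the CXCL12 receptor, was higher by log2 4.62 in IL33KO hosts (edgeR adjusted p = 1.30e-10) and 4.90 in WT hosts (adjusted p = 4.46e-11), and Gpr183, an oxysterol receptor that positions B cells, by 4.11 in IL33KO hosts (adjusted p = 2.41e-09) and 4.36 in WT hosts (adjusted p = 8.19e-10). Of 7 tested genes of lymphoid tissue inducer and follicular helper cells, 6 were higher and 1 lower in IL33KO hosts, and 5 higher and 1 lower in WT hosts, with Il7r, the interleukin-7 receptor, at 3.02 in IL33KO and 2.99 in WT hosts. Il21, a cytokine of follicular helper T cells, was at 3.27 in IL33KO and 3.18 in WT hosts. The genes of lymphoid stroma, follicular dendritic cells and high endothelial venules went both ways, 4 of 10 higher and 3 lower in IL33KO hosts and 5 higher and 3 lower in WT hosts, which is close to the shares over all genes. Fut7, a fucosyltransferase that builds selectin ligands in leukocytes as well as in high endothelium, was higher in sorted leukocytes (2.75 in IL33KO and 3.00 in WT hosts), whereas the cytokine gene Il7 was lower by -1.64 in sorted IL33KO than in bulk IL33KO libraries (adjusted p = 3.51e-05).

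Between host genotypes, edgeR called none of the genes of these 5 lists in either material. In sorted leukocytes the smallest p among them was that of Tnf, at 67.9 ± 31.3 CPM in IL33KO and 113 ± 22 CPM in WT libraries (log2 -0.73, unadjusted p = 0.0183, adjusted p = 0.297). The smallest p in whole tumour was that of Ccl20, the ligand of CCR6, at 7.92 ± 2.74 CPM in bulk IL33KO and 13.6 ± 1.6 CPM in bulk WT libraries (log2 -0.80, unadjusted p = 0.00285, adjusted p = 0.724). Ackr4, a scavenging receptor for CCL19 and CCL21, was at 0.313 ± 0.117 CPM in bulk IL33KO and 0.132 ± 0.145 CPM in bulk WT libraries (log2 1.23, adjusted p = 0.724). Pdpn, which encodes podoplanin of fibroblastic reticular cells and lymphatic endothelium, was at 14.5 ± 3.5 CPM in bulk IL33KO and 8.15 ± 6.85 CPM in bulk WT libraries (log2 0.82, adjusted p = 0.724). Limma voom with sample quality weights called 5 named list genes in whole tumour: Ccl20 at -0.70 (adjusted p = 0.0172), Ackr4 at 2.68 (adjusted p = 0.00869), Pdpn at 2.15 (adjusted p = 0.00664), Tnfrsf13b at 0.71 (adjusted p = 0.0183) and Cr2 at 3.63 (adjusted p = 0.0188). That setting called 3371 of 17258 genes in whole tumour. The named genes had been picked by smallest edgeR p in the same libraries, so their number does not stand for the lists. Cr2, complement receptor 2 of B cells and follicular dendritic cells, was at 30.4 ± 23.5 CPM in sorted IL33KO and 11.8 ± 6.4 CPM in sorted WT leukocytes (log2 1.37, edgeR adjusted p = 0.443), and at 2.46 ± 2.95 CPM in bulk IL33KO and 0.865 ± 1.348 CPM in bulk WT libraries.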

How the data were processed

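RNA-seq was measured in 20 libraries. Tumours were dissociated, CD45+ cells were taken on magnetic beads, and stranded poly(A) libraries were sequenced, per the labels' protocols. Per the submitters' processing notes the tools were Picard, HTSeq and DESeq and the build was mm10. Tool versions, the aligner and the strand setting were not given in the sources used here. The authors deposited raw HTSeq counts per gene, without normalization, for 46983 genes, plus summary lines that held 26.1 to 40.5% of reads and stayed out of library sizes and tests. A second deposited table of scaled counts was not used.

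The tests were run with edgeR 4.0.16 in R 4.3.3 (filterByExpr, TMM, glmQLFit with robust estimation, glmQLFTest), two-sided, with Benjamini-Hochberg adjustment over all genes tested and a threshold of 0.05. Genotype was tested within each compartment (10 libraries: 16731 genes sorted, 17258 bulk). Sorted against bulk, and the difference of the genotype effects, came from 1 fit to all 20 libraries (18145 genes). For CPM, library sizes were scaled by TMM, and 2 was the prior count on the log2 scale. Levels per kb divide by the union of exons in GENCODE M21 (GRCm38). Standard errors were computed from the fold change and the F statistic. Likeness between genes is the root mean square difference of centred log2 CPM over the 20 libraries among 14212 protein-coding genes, which mostly follows the compartment. Replicates differed by more than sampling noise (lowest chi-square per gene 18.3 over 40 pairs).

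The 8 members, 5 pathway lists (51 genes) and 13 marker lists were chosen with earlier results of these data known. Named genes were the members, the genes closest to each, and per list at most 4 genes by smallest p. Of the genes this rule names or lists, 2 are not reported here, and 1 of them was left out of the B cell sum. Beyond this rule, Prox1 also stands in the lymphatic endothelium list. Alternatives were DESeq2 1.42.0, its size factors in edgeR, limma 3.58.1 (voom with sample quality weights), no filter on low counts, all libraries in 1 fit, a replicate block, another gene length, and each replicate left out in turn. The tests were first checked on simulated data. Upstream sequences are from RefSeq (GRCm38.p6) and coding sequences from GENCODE M21; the kappaB consensus was searched on both strands in bases 250 before to 50 after each start.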

Additional observations from a re-analysis of the deposited data

Results flagged for a closer look

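Of 32 sets of 5 libraries (8 genes in 4 groups), 1 held a library far from the others: Ltb in bulk IL33KO 5 was 22.2 CPM, against 9.54 to 11.8 CPM in the other 4 bulk IL33KO libraries. The gap to its nearest neighbour was above the 95% critical share of the range, 0.71 for 5 libraries, on the log2 scale. Chance alone puts about 1 in 20 sets past this limit. The same library had the highest B cell gene sum of the bulk libraries (171.8 CPM), the highest Cxcr5 (8.03 CPM) and 24 of the 46 Ccl19 counts of the whole data set. By summed CPM it was also the highest bulk library for pan-leukocyte (1125 CPM), T cell (196.5 CPM) and neutrophil genes (486.2 CPM). It was not the highest by this sum for macrophage, plasma cell or mature dendritic cell genes. The plasma cell sum in whole tumour was mostly Sdc1 (mean 844.8 CPM in bulk IL33KO, 244.5 CPM in sorted IL33KO). By mean log2 CPM of the plasma cell list, bulk IL33KO 5 was at 5.585 and bulk WT 5 at 5.586. Cacnb3, in the mature dendritic cell sum, also averaged more in bulk IL33KO (69.4 CPM) than in sorted IL33KO (27.1 CPM). Bulk WT 5 had a like Ltb level (22.0 CPM), with 50.9 CPM of B cell genes and 1124 CPM of pan-leukocyte genes. The part of B cells or of other leukocytes in the Ltb value was not tested.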

How the results depend on the processing

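No member was called between host genotypes in sorted leukocytes under any alternative run. In whole tumour 4 members were called with limma voom and sample quality weights, and 1 member for the difference of the genotype effects; the other alternatives called 0 there. The number of genes called in sorted leukocytes was 2, and it was 566 with DESeq2, 400 with limma voom, 1 with the replicate block and 1 to 3 with single replicates left out. In whole tumour it was 0, and it was 50 with DESeq2, 3371 with limma voom and 0 to 19 with single replicates left out (19 without bulk WT 5). For the difference of the genotype effects it was 0, and it was 1 with DESeq2 size factors, 4 with DESeq2, 3406 with limma voom and 0 to 27 with single replicates left out (27 without bulk WT 5). The cause of these shifts was not tested.

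Some log2 values changed sign, and none of those with the other sign passed the threshold. With single replicates left out, Tnfsf13b between genotypes in sorted leukocytes ran from -0.10 to 0.044, Ltb in whole tumour from -0.061 to 0.62 and Map3k14 in whole tumour from -0.0086 to 0.14. Between sorted leukocytes and whole tumour, Cxcl13 in IL33KO hosts ran from -0.41 to 0.66, Ccl21a in IL33KO hosts from -0.094 to 0.51 and Ccl21a in WT hosts from -0.16 to 1.69. For the difference of the genotype effects, Cxcr5 ran from -1.96 to 0.15, Ccl21a from -1.39 to 0.45, Lta from -0.10 to 0.23 and Ltbr from -0.067 to 0.13; Ccl21a there was -1.39 (SE 0.62, adjusted p = 0.170) without bulk WT 5 and -0.97 (SE 0.61) with limma voom, both larger than their errors. Limma voom also called Ccl21a higher in sorted WT than in bulk WT libraries (1.28).

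Replicate numbers were not taken as pairs. Between sorted genotypes, deviations of same-numbered libraries correlated at -0.195 to 0.338, and 3 of 5 libraries were closest to their own number. Between bulk genotypes the correlations ran from -0.123 to 0.590, with 1 of 5 closest. Sorted against bulk gave -0.261 to 0.3 in IL33KO hosts and -0.154 to 0.173 in WT hosts, with 1 of 5 closest in each. Sorted and bulk libraries differ in cell mix, so these values do not show whether same-numbered libraries share a tumour. With the replicate block 1 gene was called in sorted leukocytes and 0 in whole tumour, no call of a member changed, and Ccl21a for the difference of the genotype effects became -0.89. Leaving out sorted WT 3 and IL33KO 3 together, a choice made after seeing the data, gave 3 genes called (1 higher, 2 lower). Levels below about 3 counts, as for Ccl19, could not be compared at this depth.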
